A study of Mus musculus with 3 samples.

Results

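Complement was represented by 9 genes, 7 of them encoding components of the cascade (C1qa, C1qb, C1qc, C4b, C3, Cfb and Cfp) and the other two encoding the anaphylatoxin receptors C3ar1 and C5ar1. They were chosen by name out of 33506 genes with a level in RNAseq data from tumor-bearing BALB/C mice, and all 9 were found in the table. Cells of the BALB/c renal carcinoma line Renca, in the study's account the Cherry and luciferase form Renca Ch+ L+, had been injected into the kidney. Type-2 macrophages (M2, F4/80 high and CD11b intermediate) and type-1 macrophages (M1, F4/80 intermediate and CD11b high) were sorted from 30 pooled tumors, and CD4 T cells (TCRβ+ CD4+) from 4 pooled spleens of such mice according to the extraction protocol, although the cell type label of the CD4 sample names renal tumors. The labels give both day 14 and day 16 after injection for the harvest. One library was made per cell subset, which leaves every difference without a replicate and allows no test between subsets. Levels are in FPKM, a fragment count scaled to transcript length and to the size of the library. They are set side by side between genes and between libraries here, and ratios between libraries depend on the scaling used.

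Complement is a cascade of plasma and tissue proteins that marks cells and debris for uptake. The classical pathway starts when C1q, a molecule assembled from A, B and C chains, binds a surface, and continues through C4 and C2 to the cleavage of C3. The alternative pathway amplifies C3 cleavage with factor B and is stabilized by properdin, and the small fragments C3a and C5a act on leukocytes through C3aR1 and C5aR1. Most circulating complement is made in the liver, but C1q and properdin come largely from myeloid cells, and tissue macrophages are a main source of C1q.

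The names of the libraries were checked first. All 12 T-cell markers were highest in the library labelled M2, where their summed level was 1756 FPKM against 2.55 in that labelled CD4 and 5.21 in that labelled M1. All 9 macrophage markers were lowest in the library labelled M2, with sums of 514 FPKM there, 8525 in that labelled CD4 and 7150 in that labelled M1. Lists for dendritic cells and endothelium, of 6 genes each, were low in comparison, with sums of 3.43 to 26.1 FPKM and 6.37 to 36.7 FPKM over the libraries. The T-cell and macrophage markers go against the names M2 and CD4, so libraries are called by their labels throughout and each direction given below rests on those labels. Read depth, estimated from the lowest levels in each column, was about 70500000 fragments for the library labelled CD4, 61800000 for M1 and 59300000 for M2. At these depths the levels of the complement genes rested on an estimated 634 fragments or more, the fewest being those of C5ar1 in the library labelled M2, so that counting error was small beside the differences described. In sorted cells measured in bulk, fewer cells of a type and less RNA per cell cannot be told apart.

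Of the 9 complement genes, 8 were higher in the library labelled CD4 than in that labelled M2 and 7 were higher in that labelled M1 than in that labelled M2. A gene was counted here when log2 of the ratio of FPKM + 1 was at least 1 in size, a 2-fold difference, and either library of the pair reached 1 FPKM, as was so for all 9 genes. Among all genes, 15.3% were higher by this rule in the library labelled CD4 than in M2 and 17.3% lower, while none of the complement genes was lower. Between the libraries labelled M1 and M2, 14.5% of all genes were higher in M1 and 16.9% lower, and again none of the complement genes was lower. Between those labelled CD4 and M1, 4 of the 9 genes were higher in CD4 and none lower, beside 7.01% and 7.21% of all genes. On the log2(FPKM + 1) scale the median difference over the 9 genes was 4.04 for CD4 against M2, 2.71 for M1 against M2 and 0.92 for CD4 against M1, beside -0.12, -0.10 and -0.01 over all genes that passed the same minimum. The 3 comparisons share libraries and are not independent of each other.

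**Figure D1:**
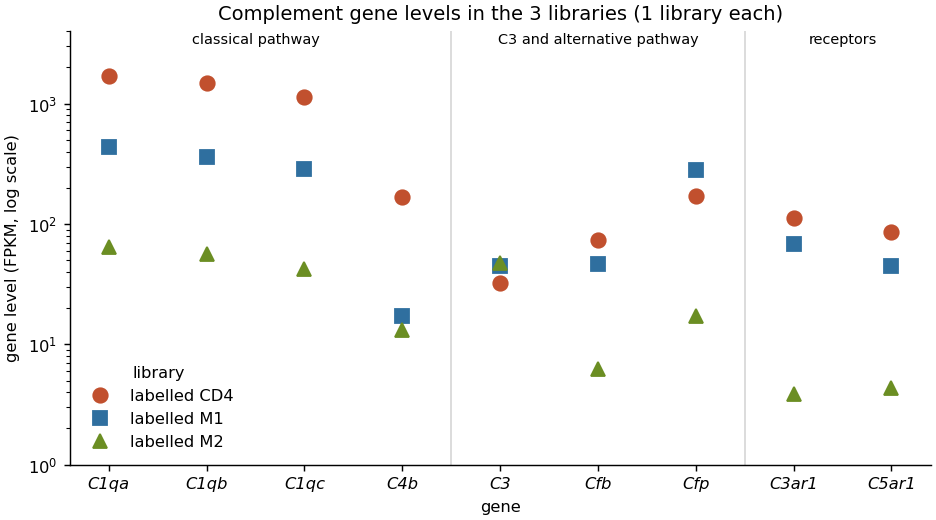
Levels of the 9 complement genes in FPKM on a log scale, 1 point for each of the 3 libraries, grouped by role. The C1q genes span 42.5 to 1690 FPKM with CD4 above M1 above M2 in each, Cfp is the one gene with its highest point in M1, and the 3 points of C3 lie close together, between 32.1 and 47.7 FPKM.

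The C1q chain genes were the most abundant of the 9 in the libraries labelled CD4 and M1 with 1 row per transcript. In M1, C1qc was only just above Cfp, at 284 against 279 FPKM. With all rows summed Cfp was above C1qc there, at 289 FPKM. C1qa (ENSMUSG00000036887), which encodes the A chain, was at 1690 FPKM in the library labelled CD4, 440 in M1 and 64.9 in M2. It ranked 11th, 82nd and 732nd among all genes of these libraries. For C1qb (ENSMUSG00000036905), the gene of the B chain, the levels were 1481, 363 and 55.9 FPKM in CD4, M1 and M2. C1qc (ENSMUSG00000036896), for the C chain, was at 1127, 284 and 42.5 FPKM. The library labelled CD4 was thus highest and that labelled M2 lowest for every chain, with wide gaps between neighbours. C1qa was 26.02 times as high in the library labelled CD4 as in M2, with a 95% interval of 25.2 to 26.9 that covers counting error only. The corresponding ratios were 26.5 for C1qb and 26.5 for C1qc. The library labelled M1 exceeded M2 by ratios of 6.78 for C1qa, 6.49 for C1qb and 6.69 for C1qc. From the library labelled M1 to that labelled CD4 the levels differed by ratios of 3.84, 4.08 and 3.96 for the A, B and C chain genes.

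The chain genes kept nearly fixed proportions although their summed level went from 163 FPKM in the library labelled M2 to 1088 in M1 and 4298 in CD4. C1qa made up 39.3% of the sum in the library labelled CD4, 40.5% in M1 and 39.7% in M2. The share of C1qb was 34.4%, 33.4% and 34.2%, and that of C1qc was 26.2%, 26.2% and 26.03%. The widest move of a share over the 3 libraries was that of C1qa, between 39.3% and 40.5%. C1qc has a second annotated transcript without a coding sequence, C1qc-002, which was listed at 0 in each library.

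These values rest on 1 row per transcript identifier, the first with a value in all 3 columns. The C1qb transcript ENSMUST00000046384 had 3 more rows, each with a value in a single column. One of them held 5164 FPKM in the column headed CD4, which is 3.49 times the level in the row used, and the others held 0.614 FPKM in M1 and 0 in M2. Summed over all rows C1qb was at 6644 FPKM in the library labelled CD4, its ratio to M2 went from 26.5 to 119 and its ratio to M1 from 4.08 to 18.3. The share of C1qb in the C1q sum of that library then became 68.0%, while it was 34.4% with 1 row. C1qc had 1 more row, at 313 FPKM in CD4 and 10.3 in M2, and C1qa 1 more, at 0.459 FPKM in M1.

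**Figure D2:**
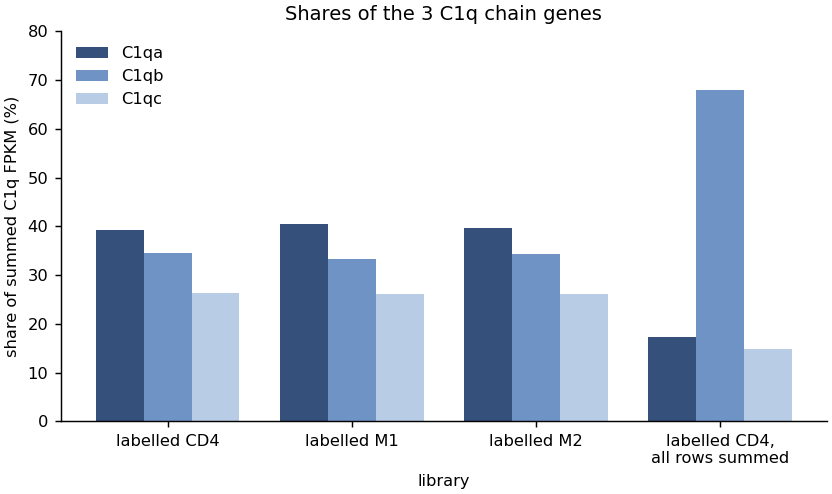
Share of each C1q chain gene, in percent, of their summed FPKM in the 3 libraries with 1 row per transcript, and in the library labelled CD4 with all rows summed. The first 3 groups of bars have nearly the same heights, with C1qa between 39.3% and 40.5%, and the last differs through C1qb at 68.0%.

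The C1q genes lie next to each other on the reverse strand of chromosome 4 in build NCBIM37 (MM9), C1qb from 136436044 to 136442102, C1qc from 136445719 to 136448980 and C1qa from 136451832 to 136454718. Because their levels kept a fixed proportion, the promoters of C1qb and C1qc are shown, with that of C3, whose level did not follow theirs, for comparison. They are the 250 bases before the RefSeq start in build GRCm38.p6, read on the reverse strand, at chr4:136886201-136886450 for C1qb, chr4:136892915-136893164 for C1qc and chr17:57228137-57228386 for C3. Of the 9 genes 6 had an entry in the RefSeq promoter table and C1qa, Cfb and C4b did not. Capitals mark GAGGAA or its complement, the core bound by the myeloid transcription factor PU.1.
C1qb: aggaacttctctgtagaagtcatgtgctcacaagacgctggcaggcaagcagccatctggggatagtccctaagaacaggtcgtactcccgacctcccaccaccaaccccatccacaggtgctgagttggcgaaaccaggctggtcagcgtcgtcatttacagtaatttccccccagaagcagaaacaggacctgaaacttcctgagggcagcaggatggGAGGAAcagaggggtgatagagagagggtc
C1qc: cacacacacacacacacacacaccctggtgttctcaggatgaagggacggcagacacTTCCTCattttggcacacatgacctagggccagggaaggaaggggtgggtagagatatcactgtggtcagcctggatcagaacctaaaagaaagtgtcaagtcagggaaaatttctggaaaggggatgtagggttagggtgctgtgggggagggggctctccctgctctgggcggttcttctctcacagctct
C3: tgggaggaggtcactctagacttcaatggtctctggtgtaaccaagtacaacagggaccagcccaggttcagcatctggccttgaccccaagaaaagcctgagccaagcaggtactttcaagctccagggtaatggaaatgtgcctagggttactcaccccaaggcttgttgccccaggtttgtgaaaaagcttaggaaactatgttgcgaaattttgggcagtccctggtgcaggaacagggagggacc
The motif stood once in the C1qb sequence, starting 30 bases before the start, once in C1qc on the opposite strand, 193 bases before it, and not in the windows of C3, C3ar1, C5ar1 or Cfp. It was present on either strand in 23.3% of the 32851 promoters of the table, so its presence in both C1q windows is a description of these letters and not of binding. TATAAA, the TATA box core, was in the window of C3ar1 alone, 235 bases before the start, and in 12.4% of all promoters. No site of one motif overlapped a site of another in these windows.

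C4b (ENSMUSG00000073418, chromosome 17 from 34865325 to 34880827) encodes complement component 4, which is cleaved by activated C1 and forms part of the classical C3 convertase. It was at 168 FPKM in the library labelled CD4, 17.1 in M1 and 13.0 in M2. The level in the library labelled CD4 stood far above the others, which lay near each other. Its ratio of CD4 to M1, 9.82 (9.56 to 10.1, counting error), was the highest of the 9 genes with 1 row per transcript (C1qb reached 18.3 with all rows), and that of M1 to M2 was 1.31. C4a, a close copy of C4b in the same region, was at 65.8, 6.31 and 5.36 FPKM in CD4, M1 and M2, which is 39.2%, 36.9% and 41.0% of C4b. Fragments of near-identical genes can be divided between them by the model of Cufflinks, and the split is therefore uncertain. For the sum of both genes, 234, 23.4 and 18.4 FPKM, the ratio of CD4 to M1 was 9.99. Fibroblast markers also stood highest in the library labelled CD4, in 6 of 7 genes, with a summed level of 31.9 FPKM there, 7.77 in M1 and 10.4 in M2, and Pdgfrb listed at 0 in CD4. Their part in the level of C4b was not tested.

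C3 (ENSMUSG00000024164, chromosome 17 from 57343397 to 57367559), the component on which all activation pathways converge, was the exception among the 9 genes. It was at 32.1 FPKM in the library labelled CD4, 45.1 in M1 and 47.7 in M2. These levels were the closest to each other of any of the genes, with the library labelled CD4 lowest, at 0.674 times M2 and 0.713 times M1. The summed C1q level was 134 times that of C3 in the library labelled CD4, 24.1 times in M1 and 3.43 times in M2. A second row of the same C3 transcript, with values in all 3 columns, was at 19.1, 17.4 and 24.0 FPKM in CD4, M1 and M2. With both rows summed the levels were 51.2, 62.5 and 71.7 FPKM, in the same order. Markers of kidney epithelium were found in each library, with summed levels of 100.1 FPKM in CD4, 122 in M1 and 200.2 in M2 over 12 genes. The single genes were divided, with 6 highest in M2, 4 in CD4 and 2 in M1. The lowest level was in M1 for 8 of them and in CD4 for 4, unlike the order of the sums. Umod was listed at 0 in M1, and the highest of the list in the library labelled M2 was Cdh16 at 87.8 FPKM. Whether RNA of such cells has a part in the level of C3 was not tested.

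Cfb (ENSMUSG00000090231, chromosome 17 from 34993319 to 34999463) encodes factor B, the protease of the alternative C3 convertase. It was at 74.2 FPKM in the library labelled CD4, 46.6 in M1 and 6.24 in M2. The libraries labelled CD4 and M1 were thus both well above M2, by ratios of 11.9 and 7.46, and differed from each other by a ratio of 1.59. The whole level lay in 1 of the 5 transcripts with a row, Cfb-002, and the other 4 were listed at 0. The annotated read-through gene Gm20547 overlaps Cfb and C2, and its transcripts were listed at 0 in the rows used.

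Cfp (ENSMUSG00000001128, chromosome X from 20502580 to 20508681) encodes properdin, which stabilizes the alternative convertase and is stored in myeloid cells. It was at 170.0 FPKM in the library labelled CD4, 279 in M1 and 17.1 in M2. Cfp was the only one of the 9 genes with its highest level in the library labelled M1, at 1.64 times that in CD4, which did not reach the 2-fold rule. Both libraries were well above M2, by ratios of 16.4 for M1 and 9.97 for CD4. Relative to C1qa, its level was 0.101 in the library labelled CD4, 0.634 in M1 and 0.263 in M2. The integrin genes Itgam and Itgax, which encode the alpha chains of complement receptors 3 and 4, also stood higher in the library labelled M1 than in CD4, at 299 against 201 FPKM and 124 against 29.5 FPKM. Itgam encodes CD11b, on which the macrophages were sorted. Neutrophil markers had summed levels of 35.7 FPKM in CD4, 66.99 in M1 and 232 in M2 over 8 genes, with Camp listed at 0 in CD4 and M1 and Ly6g in M2. Of these 6 were highest in M2, and 6 were counted as lowest in CD4, among them Camp, a tie with M1 at 0. Their part in the level of Cfp was not tested.

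The anaphylatoxin receptor genes had the same order of libraries. C3ar1 (ENSMUSG00000040552, chromosome 6 from 122797156 to 122806179), the receptor for C3a, was at 113 FPKM in the library labelled CD4, 67.9 in M1 and 3.87 in M2. Its ratio of CD4 to M2, 29.2 (27.38 to 31.1, counting error), was somewhat above those of the C1q genes with 1 row per transcript. Its interval met that of C1qc (25.6 to 27.5) but lay above those of C1qa (25.2 to 26.9) and C1qb (25.6 to 27.36). C5ar1 (ENSMUSG00000049130, chromosome 7 from 16832092 to 16844889), the receptor for C5a, was at 86.1, 45.2 and 4.31 FPKM in CD4, M1 and M2. Over M2, the library labelled M1 was higher by a ratio of 17.5 for C3ar1 and 10.48 for C5ar1, and that labelled CD4 by 20 for C5ar1. Both receptors were thus far above M2 in the other libraries, and between CD4 and M1 they differed by ratios of 1.66 and 1.91, under the 2-fold rule. C3ar1 exceeded C5ar1 by ratios of 1.31 in the library labelled CD4 and 1.504 in M1, and was below it in M2, at a ratio of 0.900. C5ar1 has a pair of annotated coding transcripts, and the second, ENSMUST00000168818, made up 13.7% of the gene in the library labelled CD4 and 14.2% in M1, while it was listed at 0 in M2.

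The levels of the complement genes were set beside those of 9 macrophage markers, among them Csf1r, Emr1, Cd68, Mertk, Fcgr1, Lyz2, Cd14 and Sirpa. Ratios of the library labelled CD4 to M2 ran from 5.13 for Sirpa to 33.9 for Csf1r among the markers, with a median of 18.9. The ratios of 8 complement genes lay within this range and C3 lay below it. For M1 over M2 the markers ran from 4.11 for Cd68 to 18.2 for Csf1r, with a median of 9. Here 7 complement genes lay within the range, and C3 and C4b lay below it. For CD4 over M1 the markers ran from 0.883 for Cd14 to 4.76 for Emr1, the gene of the sort antigen F4/80. Between these libraries 6 complement genes lay within the range, C4b lay above it, and C3 and Cfp lay below it. The C1q genes were in the upper part of that range, since the median of the markers was 1.59. All of these ratios used 1 row per transcript. With all rows summed, C1qb was at 119 for CD4 over M2 and 18.3 for CD4 over M1. Both lie above the marker ranges given here.

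**Figure D3:**
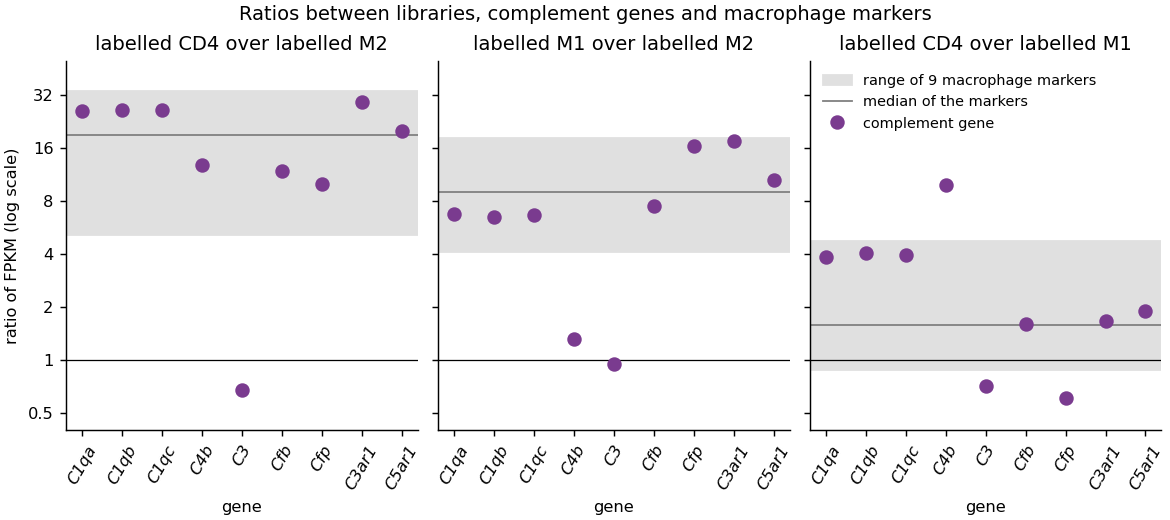
Ratio of FPKM between libraries on a log scale for each of the 9 complement genes, in 3 panels by pair of libraries, with the range of 9 macrophage markers in grey, their median as a grey line and equal levels as a black line. C3 lies below the grey range in every panel, C4b lies below it for M1 over M2 and above it for CD4 over M1, and the C1q points form a level row in each panel.

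The other 39 genes of a wider complement list were examined by role, and 20 of them had at least 1 FPKM in the library labelled CD4, M1 or M2. For CD4 against M2, 8 of these were higher in CD4 and 6 lower by the 2-fold rule, beside 15.3% and 17.3% of all genes. For M1 against M2, 5 were higher in M1 and 6 lower, beside 14.5% and 16.9%. Of 17 that passed the minimum for CD4 against M1, 6 were higher in CD4 and 2 lower, beside 7.01% and 7.21%. With all rows summed, an alternative chosen after seeing the data, the counts were 7 and 7 of 23 for CD4 against M2, 6 and 7 of 23 for M1 against M2 and 5 and 2 of 18 for CD4 against M1. C1s was then no longer counted as lower in CD4 or in M1 than in M2, while Masp2 became lower in both. Gpr77 became higher in M1 than in M2, and Clu lost its difference between CD4 and M1. Vsig4 turned from higher to lower in CD4 than in M2 and became lower in M1 than in M2.

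Among the remaining early components, C1ra, C1s and C2 did not have the order of libraries of C1q. C1ra, which encodes the protease C1r, was at 13.2 FPKM in the library labelled CD4, 8.56 in M1 and 9.51 in M2. C1s, its substrate and partner, was at 6.91, 7.68 and 16.7 FPKM, but with all rows summed at 13.98, 11.2 and 16.7 FPKM, which ends the 2-fold difference from M2. C2, the protease that joins C4b in the convertase, was at 17.9 FPKM in M2 and listed at 0 in the other libraries, where a 0 can be a failed estimate in a region of overlapping genes. C1rb was listed at 0 in the rows used and at 4.37 to 7.92 FPKM when all rows were summed. Of 7 lectin pathway genes 5 were under 1 FPKM in all 3 libraries. Fcna, which encodes ficolin A, was at 42.1, 8.93 and 4.78 FPKM in CD4, M1 and M2, in the order of C1q. The protease gene Masp1 was at 3.02, 3.12 and 7.34 FPKM.

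Terminal components were mostly at low levels, with 6 of 7 under 1 FPKM in all 3 libraries, among them Hc, which encodes C5. C6, which joins cleaved C5 in the membrane attack complex, was the other one, at 26.7 FPKM in the library labelled CD4 against 0.599 in M1 and 1.19 in M2, and at 99.0 in CD4 with all rows summed. Cfd, the gene of factor D that cleaves factor B, was at 0.0256 FPKM in CD4 and listed at 0 in M1 and M2.

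Among the further receptors, Cd93, a receptor once described as binding C1q, was at 26.04, 13.7 and 1.53 FPKM in CD4, M1 and M2, in the order of C3ar1 and C5ar1. Vsig4, the complement receptor of resident macrophages that binds C3b, was at 5.33, 1.09 and 0.253 FPKM in CD4, M1 and M2, but a further row held 29866 FPKM in the column headed M2 alone, and with all rows summed M2 was the highest. Gpr77, the second C5a receptor, stayed at or under 1.31 FPKM, and at or under 2.08 with all rows. Itgb2, the integrin beta chain shared by leukocytes, was at 95.9 FPKM in CD4, 285 in M1 and 99.4 in M2. Cr2, the complement receptor of B cells, was at 5.83 FPKM in M2, or 9.56 with all rows, and at 0.00936 and 0.0164 in CD4 and M1. Of 6 B-cell markers 3 were highest in the library labelled M2, among them Cd79a at 18.2 FPKM and Ms4a1 at 13.5, which were at or under 0.161 in the others. Their summed levels were 37.8 FPKM in CD4, 22.3 in M1 and 58.6 in M2, with Pax5 listed at 0 in each library and Cd79b in M2. The part of such cells in the level of Cr2 was not tested.

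Regulators were divided. Cd55, which encodes a membrane protein that speeds the decay of convertases, was at 14.9 FPKM in M2 and at 0.132 and 0.103 in CD4 and M1. Clu, the gene of clusterin, an inhibitor of the terminal complex, was at 160.1 FPKM in M2, 41.8 in CD4 and 20.1 in M1. Summed over all rows Clu was at 78.7 in CD4 and 75.7 in M1, which removes the difference between these libraries. Cr1l (Crry), a rodent membrane regulator, was at 12.5, 13.9 and 9.14 FPKM in CD4, M1 and M2, and Cd59a at 4.71, 2.09 and 3.00. With all rows summed Cr1l was at 34.9, 21.9 and 25.5 FPKM, Cd59a was highest in M2, at 5.55 against 4.71 in CD4 and 2.68 in M1, and Cd55 was at 26.4 FPKM in M2. Of the 12 regulators 6 were under 1 FPKM in all 3 libraries.

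**Figure D4:**
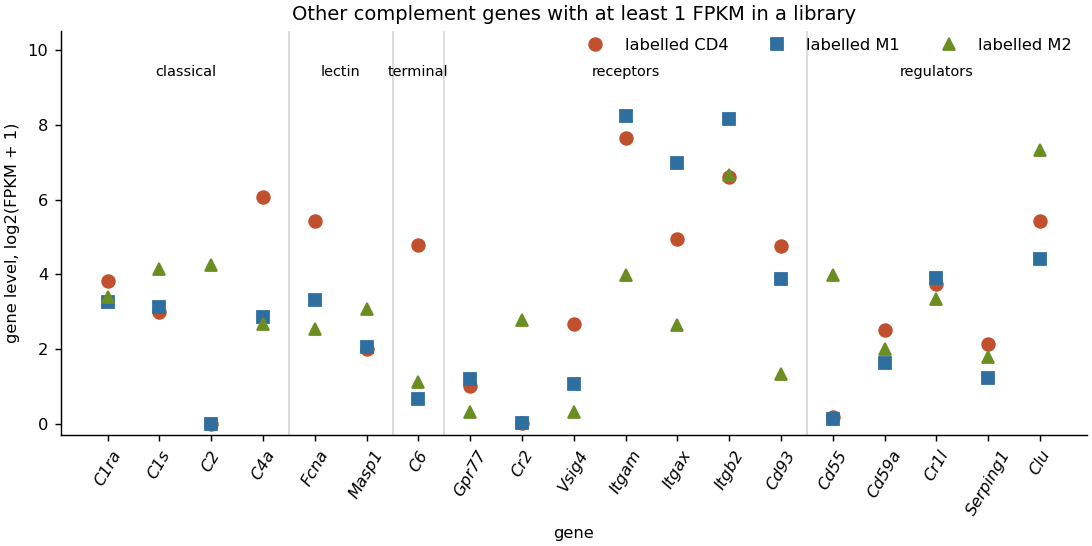
Levels of 19 of the 20 other complement genes with at least 1 FPKM in a library, as log2(FPKM + 1), 1 point for each of the 3 libraries, grouped by role. C4a, Fcna and C6 have their highest point in the library labelled CD4, Itgam, Itgax and Itgb2 in M1, and C2, Cr2, Cd55 and Clu in M2.

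Genes with a pattern like that of C1q were sought among 7025 genes with at least 10 FPKM in a library. Likeness was the distance over the 3 libraries between log2(FPKM + 1) values centred on the gene mean and the mean of the C1q genes, and with 3 points many patterns are close to each other. The nearest was Cx3cr1, the fractalkine receptor of monocytes and resident macrophages, at 139.9, 28.6 and 4.38 FPKM in CD4, M1 and M2 and a distance of 0.21. It was followed by Fcrls (0.36), Emr1 (0.37) and the Fc receptor gene Fcgr3 (0.38). Among the remaining complement genes C5ar1 was the closest, at 0.76, then C3ar1 at 0.97 and Cfb at 1.08, while C4b was at 1.66, Cfp at 1.91 and C3 at 3.71.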

How the data were processed

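RNA from sorted M1, M2 and CD4 T cells was sequenced as paired reads of 51 bases. The authors trimmed reads by quality, mapped them to MM9 by TopHat 1.4.1 running Bowtie 0.12.8, and ran Cufflinks 2.1.0 guided by Ensembl release 67. The submitters' processing notes also name Cuffdiff. The deposited values are in FPKM, 1 column per library, with a dash where a row has no value. How the assemblies were joined is not given in the sources used here.

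Per identifier the first row with values in all 3 columns was kept, and rows were summed per gene. Of 90430 such identifiers, 97.6% were found in the GENCODE annotation of NCBIM37, giving 33506 genes. Markers and the wider complement list were set from textbook knowledge. The genes and lists were chosen with earlier results of these data known. The genes named were the 9, members of the wider list, the markers and the 5 most like C1q, a few of which are not reported here. One fragment gives a fixed product of FPKM and length, so depth was read from the commonest small product among coding transcripts from 2500 to 8000 bases long whose gene has no other. Such a depth is an estimate, and intervals from it cover counting error at a level of 95%. The methods were tested on simulated data. Values were computed in Python 3.11.15 (pandas 2.3.3, numpy 2.4.6, scipy 1.17.1) and drawn with matplotlib 3.10.9. Alternatives were other row choices, pseudocounts, minimum levels, scalings and coding transcripts alone.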

Additional observations from a re-analysis of the deposited data

Results flagged for a closer look

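Rows that were not used held levels above those of the rows used for 5 complement genes. They were noticed because each signal was at least 10 FPKM and exceeded the level in the row used in the same column. For C1qb this was 5164 FPKM in the column headed CD4, beside 1481 in the row used. C6 had 72.3 FPKM in such rows of the column headed CD4, beside 26.7. Clu had 55.6 FPKM in the column headed M1, beside 20.1. Cr1l had 22.4 FPKM in the column headed CD4 and 16.4 in that headed M2, beside 12.5 and 9.14. Vsig4 had 29866 FPKM in the column headed M2, beside 0.253, in a row without a value in the other columns. The table gives no coordinates or lengths for these rows, and what they hold was not tested.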

How the results depend on the processing

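No paired analysis was possible because there was 1 library per subset. With 1 library each, the spread between mice is not known for any level given here. The complement genes past a 2-fold difference numbered 8 for CD4 against M2, 7 for M1 against M2 and 4 for CD4 against M1. These numbers were the same under all 9 alternatives, but not every alternative could change them. All 9 genes reached 10 FPKM in a library of each pair, so the other minimum levels could not. The highest row and coding transcripts alone left every ratio of these genes as it was. The median differences of the 9 genes on the log2 scale ran from 4.04 to 4.29, from 2.58 to 2.76 and from 0.92 to 0.94 in the same order. Of 189 values of single genes under 7 alternatives, 0 crossed the 2-fold limit and 0 changed sign. These include the values for the highest row and for coding transcripts alone, which equal the main ones. Taking a dash as 0 changed the values of Cfp alone. When each library was scaled to sum to 1000000 the median over all genes went from -0.12 to -0.30 for CD4 against M2 and from -0.10 to -0.31 for M1 against M2, and with no minimum level the share of all genes higher was 5.68% and 5.38%. Among the 9 genes the largest move of a level was that of C1qb with all rows summed, and in the wider list that of Vsig4 in M2, both given above.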
